A study of Xenopus laevis with 42 samples.

Results

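Tight junction genes of the D1 lineage of the frog Xenopus laevis were described across 7 stages of development, in tissue that had been explanted and in tissue that had stayed in the embryo. The genes are 39 of the 44962 rows of the 2 deposited tables. They were chosen by name, as claudins (cldn with a number), ZO scaffolds (tjp with a number), cingulins (cgn and cgnl1), occludin (ocln), tricellulin (marveld2) and junctional adhesion molecule A (f11r), and had to reach 1 TPM in at least 1 of 14 columns. By name 55 rows match, and 16 of them stayed under 1 TPM throughout. TPM, the unit of both tables, is a level corrected for transcript length and scaled to a fixed total, so levels of different genes can be set side by side. The members are 23 claudin rows, 6 ZO scaffold rows, 4 cingulin rows, 4 rows of occludin and tricellulin and 2 rows of f11r. Together they stand for 23 gene symbols, 16 of them with both homeologs. A final L or S in a row name tells whether a row is the copy on the longer or on the shorter set of chromosomes, since this frog has a doubled genome.

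The D1 blastomere is a dorsal animal cell of the 8-cell embryo. It was removed and grown on its own (explant), or it was dyed by injection in place and its glowing descendants were later cut from the embryo (progeny). Explants and progeny were each collected at 8-cell (Nieuwkoop-Faber stage 4, 2 hours 15 minutes), 16-cell (stage 5, 2 hours 45 minutes), 32-cell (stage 6, 3 hours), blastula (stage 8, 5 hours), gastrula (stage 11, 11 hours), early neurula (stage 14, 16 hours) and mid neurula (stage 17, 18 hours). The labels give 3 samples for each of the 14 groups, 42 in all, numbered by frog, and name no genotype, strain or added factor for either tissue. Each deposited column holds 1 pooled value per group, so there is no replicate check and no test on any value below.

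Tight junctions seal the space between epithelial cells near their apical border. Claudins form the strands that decide which ions and solutes pass, occludin and tricellulin are membrane partners of these strands, and JAM-A is an adhesion molecule beside them. ZO scaffolds and cingulins lie under the membrane and tie the strands to actin and myosin. Frog embryos carry maternal junction components and seal their outer surface during cleavage. Later the epidermis keeps an outward-facing sealed epithelium, while the neural plate rolls inward and neural crest and muscle cells have no such surface.

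Values are TPM unless a log2 difference is named, and lists of 7 values run from 8-cell to mid neurula. The words higher, lower, rose and fell are kept for a gap of 1 or more in log2(TPM + 1), or 2-fold with 1 TPM added to each value. The added 1 TPM understates changes of low rows. Explant levels come from one table and progeny levels from another that was scaled separately, and the depth behind either is unknown. Rescaling by the median of ratios scales on the typical gene in place of the total. Before 1 TPM is added, it moves explant minus progeny log2 ratios by 0.29 at 8-cell. The shift is 0.14 at both neurula stages and -0.09 at gastrula. On the same basis changes between stages move by between -0.54 and 0.58. With 1 TPM added, low rows move by other amounts. Among rows reaching 10 TPM the spread of explant minus progeny log2 differences (SD over rows) was 0.535 at 8-cell. It was 0.348 to 0.354 in the columns for 16-cell, 32-cell and blastula, 0.598 at gastrula, 1.34 in early neurulae and 1.26 in mid neurulae. The 8-cell explant column was known from earlier results to stand apart, so changes between stages start at 16-cell. In bulk samples, fewer cells of a type and less RNA per cell cannot be told apart.

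Claudin messages were abundant from the start, and most of them were claudin 6 and claudin 7. The 23 claudin rows summed to 11827 TPM in explants and 10215 TPM in progeny at 8-cell, which is 1.18% of all TPM in the explant column and 1.02% in the progeny column. The 5 cldn6 rows made up 80.2% of this in explants and 79.9% in progeny. Claudin 6 is known from embryonic epithelia of vertebrates. The leading row, cldn6.1.L, was at 2771, 2394, 2228, 1779, 892, 122 and 69.4 TPM in explants, and at 2556, 2275, 2228, 1970.2, 804, 116 and 62.1 TPM in progeny. At 8-cell it ranked 17 of the 44962 rows in explants and 16 in progeny, and at mid neurula it ranked 2367 in explants and 2760 in progeny.

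Its companion row cldn6.2.L stood at 2630.1, 2210.1, 2005, 1513, 733, 571 and 445 TPM in explants, and at 2252, 1966, 1889, 1634, 757, 554 and 411 TPM in progeny. The S copies were of the same order, with cldn6.2.S at 1987, 1718, 1533, 1183, 763, 307 and 287 TPM in explants and 1773, 1546, 1516, 1300.3, 697, 461 and 369 TPM in progeny. Row cldn6.1.S was at 2093, 1684, 1453, 811, 302, 129.9 and 200.5 TPM in explants, and at 1582, 1179.7, 1202, 687, 211, 154 and 145 TPM in progeny. All 4 rows were highest at 8-cell in both tissues. In the RefSeq gene order of assembly Xenopus_laevis_v10.1, cldn6.1 and cldn6.2 are neighbours on both subgenomes, and the sources used here do not say how reads were shared among these similar genes. The fifth row, cldn6.S, was a minor one with another course, at 1.57, 2.07, 2.54, 2.36, 7.88, 6.04 and 4.82 TPM in explants and 1.89, 1.86, 1.87, 1.88, 8.82, 10.3 and 5.42 TPM in progeny.

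Claudin 7, a barrier-forming claudin of many epithelia, was the other large maternal message. Row cldn7.L was at 1343, 1131, 1035, 811, 886, 684 and 530.0 TPM in explants, and at 1120.0, 989, 983, 862, 679, 241 and 187 TPM in progeny. Its S copy was at 893, 848, 797, 564, 540.2, 225 and 196 TPM in explants and 816, 641, 627, 541, 425, 115 and 106 TPM in progeny. The tissues were within 2-fold of each other up to gastrula, and at both neurula stages both copies had more TPM in explants. Claudin 12, which in mammals lacks the tail that binds ZO scaffolds, was present at a lower level throughout. Row cldn12.S was at 46.0, 54.1, 57.4, 55.4, 29.8, 25.0 and 23.3 TPM in explants and 49.9, 54.5, 63.4, 68.0, 26.7, 30.6 and 29.8 TPM in progeny, and cldn12.L at 9.03, 7.96, 11.1, 16.8, 9.78, 8.76 and 8.64 TPM in explants and 17.4, 17.7, 22.6, 21.7, 6.99, 11.1 and 11.4 TPM in progeny.

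**Figure D1:**
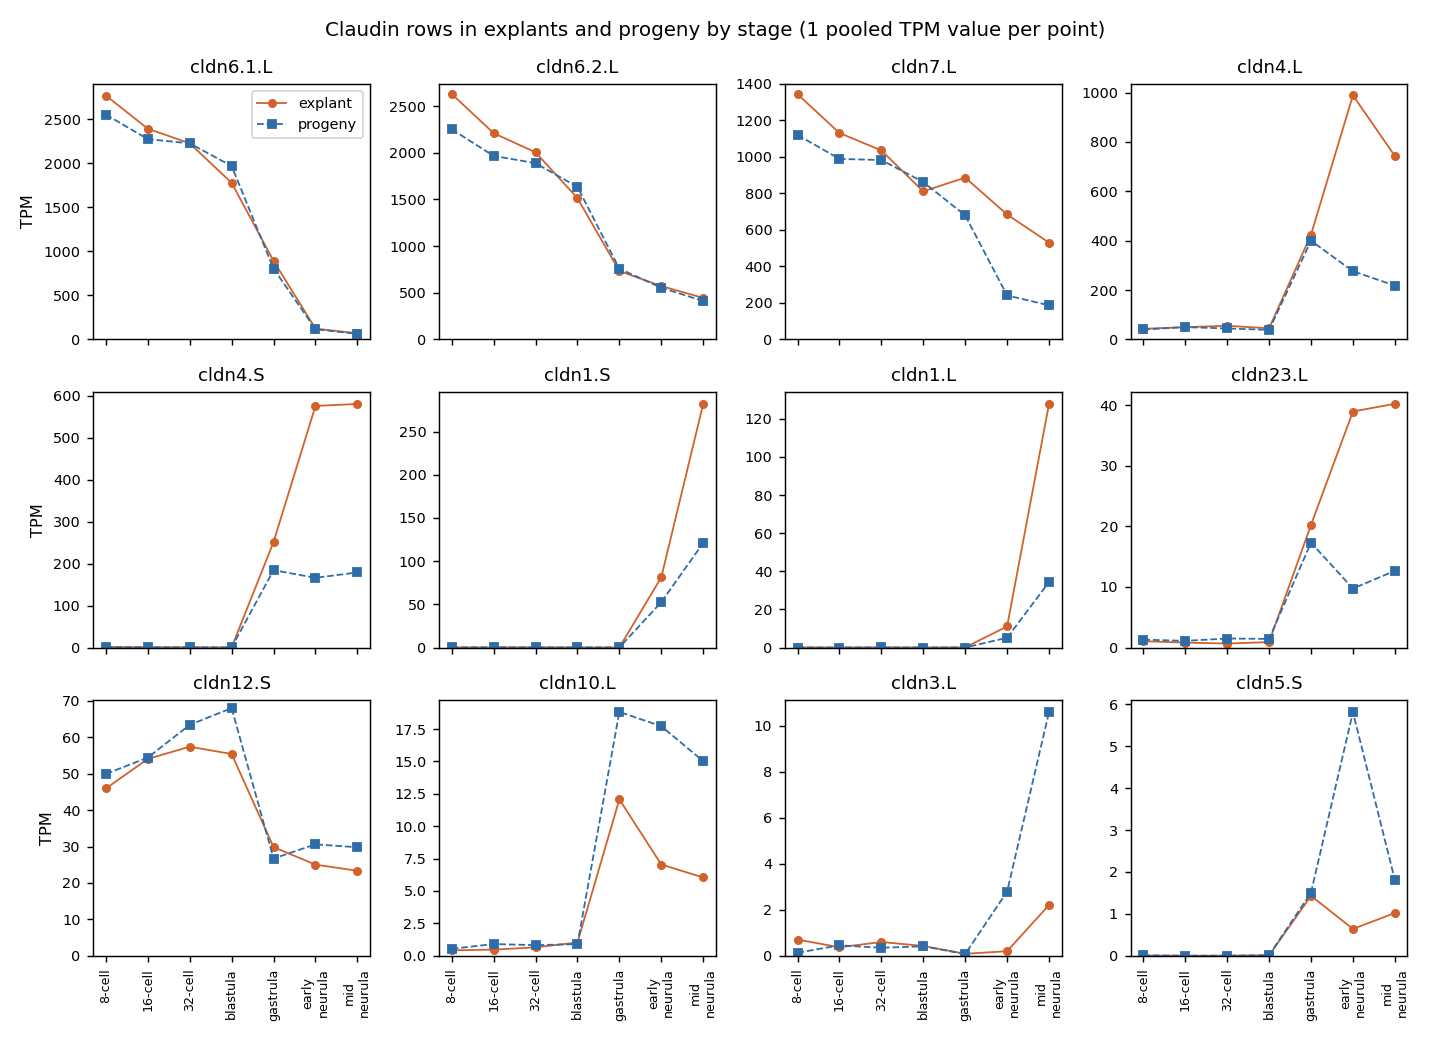
TPM (y axis, linear, own scale per panel) of 12 claudin rows at the 7 stages (x axis), with explants as circles on solid lines and progeny as squares on dashed lines, 1 pooled value per point and no error bars. The cldn6 panels fall in both tissues together, cldn4, cldn7.L, cldn1 and cldn23.L end higher in explants (743 against 218 TPM for cldn4.L at mid neurula), and cldn10.L and cldn3.L end lower in explants.

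A second set of claudins was nearly silent in cleavage and appeared at gastrula or later. Under cut-offs chosen after the values were seen, 20 members were at 10 TPM or more in all 16-cell, 32-cell and blastula columns, and 6 were under 2 TPM in all of those and reached 10 TPM later. These 6 are all claudin rows, namely cldn4.S, cldn1.S, cldn1.L, cldn23.L, cldn10.L and cldn3.L. Claudins are 23 of the 39 members, and how many of all rows fall into each of these classes was not counted. A further 8 members stayed under 10 TPM in every column, and 5 followed other courses. No row of occludin, tricellulin or f11r was among the 6 late ones.

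Claudin 4, a barrier-forming partner of claudin 3 in many epithelia, showed a late onset in its S copy. Row cldn4.S was at 1.03, 0.611, 0.580, 0.253, 251, 576 and 580.3 TPM in explants and at 0.898, 0.514, 0.334, 0.335, 184, 166 and 179 TPM in progeny. Row cldn4.L had a maternal level and then followed, at 42.8, 49.5, 55.0, 44.9, 424, 989 and 743 TPM in explants and 40.0, 49.6, 44.2, 38.4, 399.6, 276 and 218 TPM in progeny. At gastrula the tissues were within 2-fold for both copies. At early neurula cldn4.L ranked 121 of 44962 rows in explants and 606 in progeny.

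Claudin 1, the claudin that mouse epidermis needs for its water barrier, appeared after gastrula. Row cldn1.S was at 0.132, 0.096, 0.280, 0.028, 0.067, 81.3 and 282 TPM in explants, and at 0.074, 0.273, 0.069, 0.160, 0.076, 52.6 and 121 TPM in progeny. Row cldn1.L was at 0.077, 0, 0.082, 0.012, 0.068, 11.1 and 128 TPM in explants, and at 0, 0.012, 0.018, 0, 0.0072, 5.14 and 34.3 TPM in progeny. Both copies were under 0.3 TPM up to gastrula and, as deposited, rose at both later intervals in both tissues. With median-of-ratios scaling the early to mid neurula change of cldn1.S in progeny was just under 2-fold, at 0.98. Claudin 23 rose earlier, with cldn23.L at 1.05, 0.812, 0.658, 0.901, 20.2, 39.0 and 40.2 TPM in explants and 1.30, 1.099, 1.49, 1.42, 17.3, 9.74 and 12.7 TPM in progeny.

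Claudin 10 and the L copy of claudin 3 had their higher neurula values in progeny. Claudin 10, which in mammals forms ion-selective pores, was represented by cldn10.L at 0.414, 0.468, 0.646, 1.02, 12.1, 7.04 and 6.04 TPM in explants and 0.534, 0.898, 0.816, 0.889, 18.8, 17.7 and 15.0 TPM in progeny. Row cldn3.L was at 0.701, 0.365, 0.595, 0.423, 0.083, 0.196 and 2.20 TPM in explants and 0.128, 0.451, 0.345, 0.408, 0.072, 2.78 and 10.6 TPM in progeny. Both were low in cleavage in both tissues. The S copy cldn3.S was not lower in explants, at 1.14 TPM in explants and 0.925 TPM in progeny at mid neurula. In the RefSeq gene order cldn3.L lies next to cldn4.L, and these neighbours differed between the tissues in opposite directions at mid neurula, with log2 differences of -1.86 and 1.76.

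Occludin was maternal and abundant. Row ocln.L was at 548, 441, 423, 376, 262, 154 and 163 TPM in explants, and at 470.2, 419, 438, 414, 212, 59.2 and 54.0 TPM in progeny. Row ocln.S was at 188, 171, 163, 137, 132, 123 and 106 TPM in explants, and at 133, 104, 109.5, 94.1, 119, 35.0 and 23.5 TPM in progeny. Progeny lost most of both copies after gastrula, while ocln.S in explants, as deposited, stayed within 2-fold of its 8-cell value. With median-of-ratios scaling ocln.S was lowest at blastula in explants, more than 2-fold under 8-cell. Tricellulin, which sits where 3 cells meet, had fewer TPM than occludin at 8-cell in both tissues. Row marveld2.S was at 51.7, 47.5, 53.5, 61.6, 19.9, 15.6 and 12.8 TPM in explants and 56.3, 58.1, 62.7, 72.2, 19.1, 4.89 and 4.51 TPM in progeny, and marveld2.L at 13.3, 19.1, 22.7, 29.0, 19.7, 11.3 and 10.1 TPM in explants and 15.9, 18.4, 24.6, 32.5, 18.5, 10.4 and 6.46 TPM in progeny. As deposited, both tricellulin copies had their highest value at blastula in both tissues. With median-of-ratios scaling marveld2.S was highest at 8-cell in both, and marveld2.L at 32-cell in explants.

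As deposited, JAM-A stayed within 2-fold of its 8-cell value up to gastrula in both copies and tissues. With median-of-ratios scaling both copies were lowest at blastula in explants, more than 2-fold under 8-cell. Row f11r.L was at 465, 424, 409, 329.9, 392, 322 and 300.3 TPM in explants, and at 434, 430.0, 405, 389, 382, 186 and 146 TPM in progeny. Row f11r.S was at 361, 299, 283, 236, 238, 177 and 166 TPM in explants, and at 312, 256, 272, 245, 224, 83.8 and 61.0 TPM in progeny. From gastrula to early neurula both copies fell in progeny as deposited, and both were under 2-fold in explants. With median-of-ratios scaling f11r.L was just under 2-fold in progeny, with a log2 change of -0.96.

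The ZO scaffolds ZO-1 and ZO-3 followed partly different courses. As deposited, the copies of tjp3 were highest at 8-cell and those of tjp1 at blastula or mid neurula. The copies of both genes were lowest at gastrula or early neurula. With median-of-ratios scaling tjp1.S in explants and tjp1.L in progeny were highest at 8-cell too. Row tjp1.L (ZO-1) was at 14.5, 10.6, 10.7, 12.3, 4.202, 10.2 and 18.6 TPM in explants and 14.5, 12.8, 13.8, 15.4, 4.26, 11.4 and 14.1 TPM in progeny, and tjp1.S at 20.7, 22.5, 28.1, 34.4, 11.3, 7.06 and 12.4 TPM in explants and 25.3, 27.8, 33.7, 41.7, 9.91, 14.3 and 15.8 TPM in progeny. Row tjp1.L had more TPM at mid neurula than at gastrula in both tissues. For ZO-3, tjp3.L was at 34.4, 28.8, 27.0, 24.8, 14.6, 27.1 and 32.2 TPM in explants and 37.7, 32.1, 31.5, 29.2, 18.1, 8.70 and 11.9 TPM in progeny, and tjp3.S at 38.4, 33.4, 28.3, 26.1, 7.70, 11.3 and 11.1 TPM in explants and 41.2, 38.2, 37.8, 34.5, 8.24, 4.94 and 5.52 TPM in progeny. At gastrula tjp3.L had fewer TPM than in any earlier column of the same tissue, and only its explant values were above the gastrula one at both neurula stages.

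The L copy of cingulin and both copies of paracingulin traded places between blastula and the neurula stages. Row cgn.L was at 4.09, 8.85, 10.8, 17.9, 50.3, 77.5 and 73.2 TPM in explants and 5.47, 6.17, 9.02, 14.6, 38.9, 27.6 and 26.0 TPM in progeny. Paracingulin recruits regulators of small GTPases to junctions. It went the other way from blastula to gastrula, after cgnl1.L, as deposited, had risen from 16-cell to blastula in both tissues. Row cgnl1.L was at 9.19, 26.8, 33.1, 63.2, 17.3, 2.13 and 2.14 TPM in explants and 17.1, 24.2, 35.8, 52.3, 15.6, 2.79 and 3.82 TPM in progeny. Row cgnl1.S was at 34.0, 42.4, 42.8, 48.3, 6.64, 1.17 and 1.98 TPM in explants and 30.4, 35.8, 41.4, 44.6, 3.84, 1.98 and 3.30 TPM in progeny. At blastula both paracingulin copies were above cgn.L in both tissues, and at both neurula stages both were below it.

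**Figure D2:**
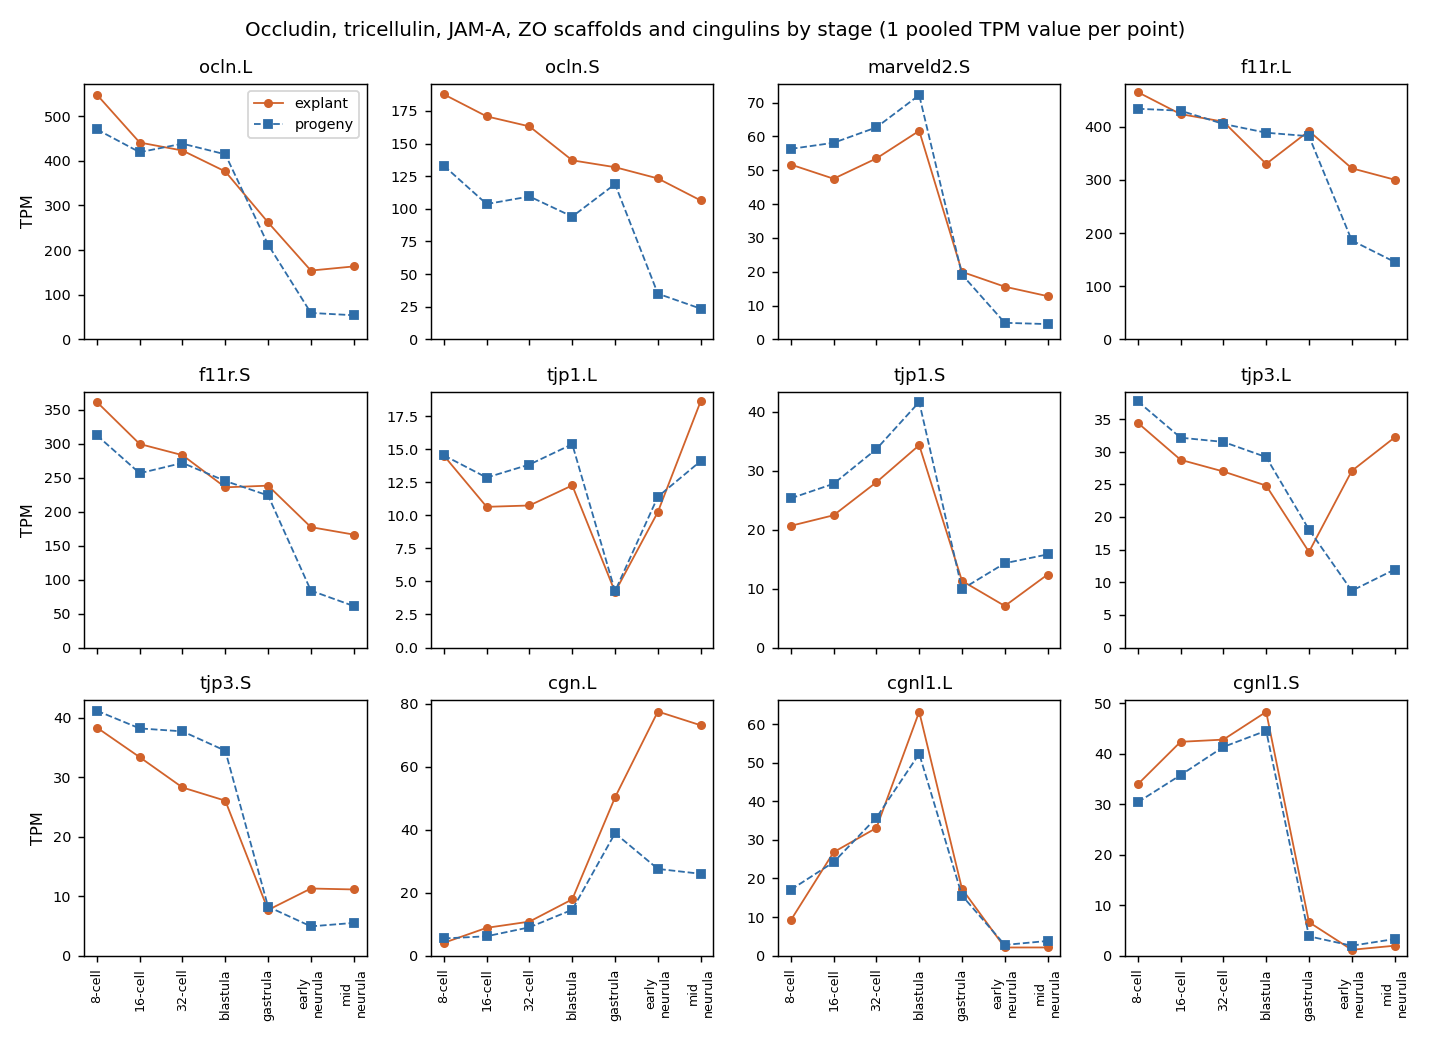
TPM (y axis, linear, own scale per panel) of 12 rows of occludin, tricellulin, JAM-A, ZO scaffolds and cingulins at the 7 stages (x axis), with explants as circles on solid lines and progeny as squares on dashed lines, 1 pooled value per point and no error bars. After gastrula the ocln, f11r and marveld2.S curves lie apart with explants above progeny. The ocln.S curve is also above progeny in explants before gastrula. From blastula to gastrula cgn.L climbs while cgnl1 drops. After gastrula tjp3.L turns upward in explants (27.1 against 8.70 TPM in progeny at early neurula).

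The next question is when these messages moved within each tissue. From 16-cell to blastula few members changed. In explants 3 of 39 rose, against 13.1% of all 26351 rows that reach 1 TPM, and 1 fell, against 1.04%. In progeny 4 rose, against 8.92% of all rows, and 0 fell, against 0.736%. Row cgnl1.L rose in both tissues, cgn.L in progeny alone, and cldn6.1.S fell in explants with a log2 change of -1.05. With median-of-ratios scaling the counts became 1 risen and 5 fallen in explants and 1 risen and 1 fallen in progeny, so this interval depends on the scaling. Of all rows 3.47% then rose and 5.51% fell in explants, and 2.11% rose and 2.29% fell in progeny. The shares of risen members lay near or under those of all rows under both scalings.

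At gastrula 8 members had risen from their blastula level in explants, against 14.7% of all rows, and 8 in progeny, against 16.1%. They were the same 8 rows, among them cldn4.L, cldn4.S, cldn10.L, cldn23.L, cldn5.S, cldn6.S and cgn.L. The largest change was that of cldn4.S, with log2 changes of 7.65 in explants and 7.12 in progeny. Meanwhile 10 members had fallen in explants, against 27.9% of all rows, and 13 in progeny, against 29.5%. Of these, 9 rows fell in both tissues, namely cgnl1.L, cgnl1.S, cgn.S, tjp1.L, tjp1.S, tjp3.S, marveld2.S, cldn6.1.S and cldn6.2.L. The widest fall was that of cgnl1.S, with log2 changes of -2.69 in explants and -3.24 in progeny. With median-of-ratios scaling 8 rose in each tissue, and the fallen were 6 in explants and 8 in progeny, against 19.6% and 21.5% of all rows risen and 18.3% and 19.8% fallen. Members' shares were close to those of all rows in both directions. How many of all rows rose or fell in both tissues was not counted, here or for the later intervals.

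The summed claudin TPM at gastrula was 0.718 of its blastula value in explants and 0.594 in progeny. With median-of-ratios scaling the explant ratio became 1.04 and that of progeny 0.891, so its direction in explants is not fixed. The cldn6 sum was 0.51 of its blastula value in explants and 0.443 in progeny, and with the other scaling 0.737 in explants and 0.664 in progeny. The cldn4 sum was 14.97 times its blastula value in explants and 15.1 times in progeny. Row cldn7.L kept to within 2-fold over this interval in both tissues, with log2 changes of 0.13 in explants and -0.34 in progeny.

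Between gastrula and early neurula 7 members rose in explants, against 16.1% of all rows, and 7 fell, against 20.5%. In progeny 5 rose, against 17.7%, and 10 fell, against 15.7%. Rows cldn1.L, cldn1.S and tjp1.L rose in both tissues, and cldn6.1.L, cldn7.S and cgnl1.L were among those that fell in both. Rows cldn4.L, cldn4.S, cldn34.S and cldn8.1.L passed 2-fold upward in explants alone. Rows ocln.L, ocln.S, f11r.L, f11r.S, marveld2.S and cldn7.L passed 2-fold downward in progeny alone. For example ocln.S had a log2 change of -0.10 in explants and -1.74 in progeny, and cldn7.L one of -0.37 in explants and -1.49 in progeny. As deposited, the share of members that fell was above that of all rows in progeny and below it in explants. With median-of-ratios scaling 10 members rose and 5 fell in explants, against 20.7% and 16.0% of all rows. In progeny 5 then rose and 9 fell, against 19.4% and 15.1%. Row f11r.L in progeny and row cldn7.S in explants were then under 2-fold, each with a log2 change of -0.96. These counts come from 1 column per stage and tissue, and whether the tissues' changes differ was not tested.

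From early to mid neurula 6 members rose in explants, against 7.49% of all rows, and 0 fell, against 1.24%. In progeny 5 rose, against 7.77%, and 1 fell, against 1.48%. The 5 rows that rose in progeny, cldn1.L, cldn1.S, cldn3.L, cldn34.L and cldn34.S, also rose in explants. The row that fell in progeny was cldn5.S, known in mouse as the claudin of the blood vessel barrier, with a log2 change of -1.28. Every member that rose in progeny in this interval was a claudin. With median-of-ratios scaling 6 members rose and 1 fell in explants, against 5.82% and 2.21% of all rows. In progeny 4 then rose and 3 fell, against 5.77% and 2.60%. Row cldn1.S was then just under 2-fold in progeny, with a log2 change of 0.98.

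Few members, like few of all rows, differed between explants and progeny through cleavage, blastula and gastrula. At 8-cell 1 member was higher in explants, against 1.90% of all rows, and 0 were lower, against 4.16%. At 16-cell 0 were higher, against 1.09%, and 1 was lower, against 1.47%. At 32-cell 0 were higher, against 1.32%, and 0 lower, against 1.64%. At blastula 0 were higher, against 1.43%, and 1 was lower, against 1.46%. At gastrula 0 were higher, against 2.20%, and 0 lower, against 3.42%. The exceptions were cldn3.S at 8-cell, at 6.33 TPM in explants and 1.59 TPM in progeny, cldn12.L at 16-cell and cldn15.1.L at blastula. Row cldn15.1.L is a member only because it reached 1 TPM in that progeny column. With a pseudocount of 0.1 the gastrula counts became 2 higher, against 5.68% of all rows, and 1 lower, against 7.14%. The highest gastrula difference with 1 TPM added was 0.66 on the log2 scale, for cgnl1.S.

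At early neurula the tissues separated. Of the 39 members 12 were higher in explants, which is 30.8%, against 10.9% of all rows, and 3 were lower, against 12.9%. The median log2 difference was 0.37 over the members and -0.11 over all rows. At mid neurula 16 were higher, which is 41.0%, against 12.0% of all rows, and 2 were lower, against 13.6%, with medians of 0.63 and -0.13. Of the 12 higher rows at early neurula 11 were higher again at mid neurula, which is 91.7% of the first list and 68.8% of the second. The matching shares for all rows were not counted. Both neurula stages showed a surplus of higher rows relative to the whole table. With median-of-ratios scaling 14 and 18 members were higher at these stages, against 12.8% and 13.5% of all rows. Then 3 and 2 were lower, against 12.1% and 11.8% of all rows.

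By role, the higher rows at early and mid neurula were 5 and 8 of 23 claudin rows, 3 and 3 of 4 rows of occludin and tricellulin, 1 and 2 of 2 f11r rows, 2 and 2 of 6 ZO rows, and 1 and 1 of 4 cingulin rows. The lower rows were all claudins. Because homeologs are alike in sequence, the count was also made per gene: of 23 symbols with both copies summed, 7 were higher and 3 lower at early neurula, and 9 higher and 2 lower at mid neurula. Over all 19275 symbols summed alike, 11.6% were higher and 12.4% lower at early neurula, and 12.8% higher and 13.0% lower at mid neurula.

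Among claudins, cldn4 had the largest amount of message behind its difference. Its 2 copies summed to 1564 TPM in explants and 442 TPM in progeny at early neurula, a ratio of 3.54, and to 1323 TPM in explants and 397 TPM in progeny at mid neurula, a ratio of 3.33. Row cldn7.L was at 684 TPM in explants and 241 TPM in progeny at early neurula, with log2 differences of 1.50 then and 1.50 at mid neurula. The S copy cldn7.S had log2 differences of 0.97 and 0.87, just under 2-fold, and passed it at both stages with median-of-ratios scaling, at 1.104 and 1.02. Row cldn23.L had log2 differences of 1.90 and 1.59. Both copies of cldn1 were higher in explants at mid neurula, with log2 differences of 1.87 for L and 1.21 for S. At early neurula both were under 2-fold, and cldn1.L, at 0.97, passed it with median-of-ratios scaling, at 1.12. Row cldn34.S was higher at both stages and cldn34.L at mid neurula, all at levels under 10 TPM.

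Claudin 6 stood apart from these, with none of its 5 rows past 2-fold at either stage. Both claudin 12 rows were likewise under 2-fold, with log2 differences of -0.32 and -0.36 for cldn12.L and -0.28 and -0.34 for cldn12.S. The cldn6 sum was 1136 TPM in explants and 1295 TPM in progeny at early neurula, a ratio of 0.877, and 1006 TPM in explants and 993 TPM in progeny at mid neurula, a ratio of 1.01. Row cldn6.1.L, for example, had log2 differences of 0.07 and 0.16, and cldn6.2.S of -0.58 and -0.36. With median-of-ratios scaling the ratios of the sums were 0.966 at early and 1.12 at mid neurula.

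Membrane partners of the claudins were higher in explants in most rows. Row ocln.S had a log2 difference of 2.13 at mid neurula and 1.79 at early neurula. Row ocln.L had 1.36 at early and 1.58 at mid neurula. Row marveld2.S had 1.49 and 1.32, whereas marveld2.L had 0.11 and 0.57, both under 2-fold. JAM-A had log2 differences of 0.79 and 1.04 for f11r.L and of 1.07 and 1.43 for f11r.S. The summed ratio of explants over progeny for occludin and tricellulin was 2.78 at early neurula and 3.31 at mid neurula, and for f11r it was 1.85 and 2.26.

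The scaffolds were divided. Row tjp3.L had log2 differences of 1.53 and 1.36, and tjp3.S of 1.05 and 0.90. The ZO-1 rows did not pass 2-fold at either stage, and tjp1.S had -0.93 at early neurula, on the side of progeny. Cingulin row cgn.L was higher in explants at both stages, with 1.46 and 1.46. Paracingulin was not, at -0.28 and -0.62 for cgnl1.L and at -0.46 and -0.53 for cgnl1.S.

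The members lower in explants were cldn10.L, cldn3.L and, at early neurula, cldn5.S. Row cldn10.L was at 7.04 TPM in explants and 17.7 TPM in progeny at early neurula, with log2 differences of -1.22 then and -1.19 at mid neurula. Row cldn3.L was at 2.20 TPM in explants and 10.6 TPM in progeny at mid neurula, with log2 differences of -1.66 at early and -1.86 at mid neurula. Row cldn5.S was at 0.640 TPM in explants and 5.81 TPM in progeny at early neurula. All 3 were minor messages, none above 20 TPM in any column.

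**Figure D3:**
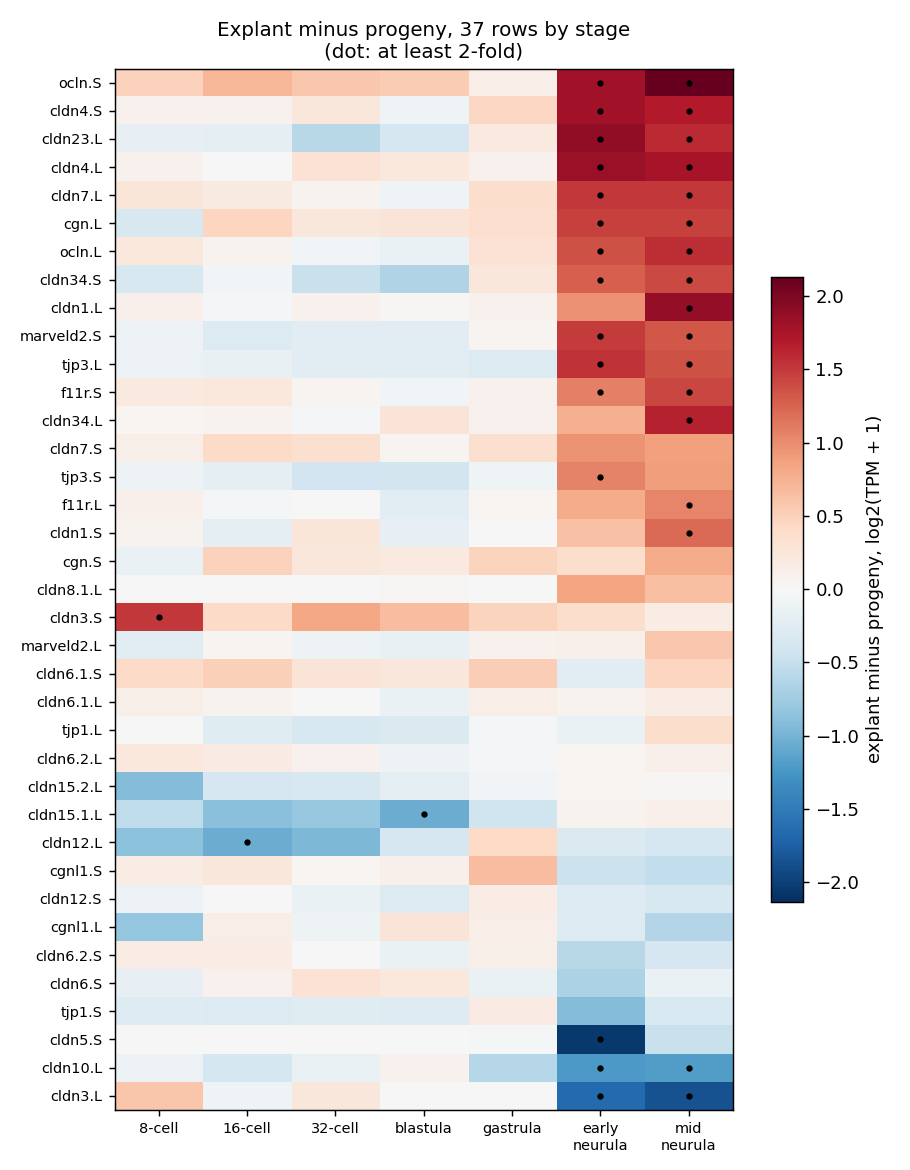
Heat map of explant minus progeny log2(TPM + 1) for 37 of the 39 rows (y axis, ordered by their mean over gastrula and both neurula stages) at the 7 stages (x axis), red where explants and blue where progeny had more, with a dot where the difference is at least 2-fold. Dots are almost absent up to gastrula and gather in both neurula columns, with 12 and 15 dots in red and 3 and 2 in blue.

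The make-up of the claudin pool came to differ between the tissues. At gastrula the cldn6 rows held 55.3% of claudin TPM in explants and 58.5% in progeny, the cldn7 rows 29.3% in explants and 26.1% in progeny, and the cldn4 rows 13.9% in explants and 13.8% in progeny. At early neurula cldn4 rows held 41.3% in explants and 19.8% in progeny, cldn7 rows 24.0% in explants and 15.9% in progeny, and cldn6 rows 29.996% in explants and 58.1% in progeny. At mid neurula cldn4 rows held 37.1% in explants and 20.6% in progeny, cldn1 rows 11.5% in explants and 8.07% in progeny, and cldn6 rows 28.2% in explants and 51.6% in progeny. The leading claudin at both neurula stages was thus claudin 4 in explants and claudin 6 in progeny. These shares are within a column and do not depend on the scaling between columns. The pool itself was 1.70 times as large in explants as in progeny at early neurula and 1.85 times at mid neurula.

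**Figure D4:**
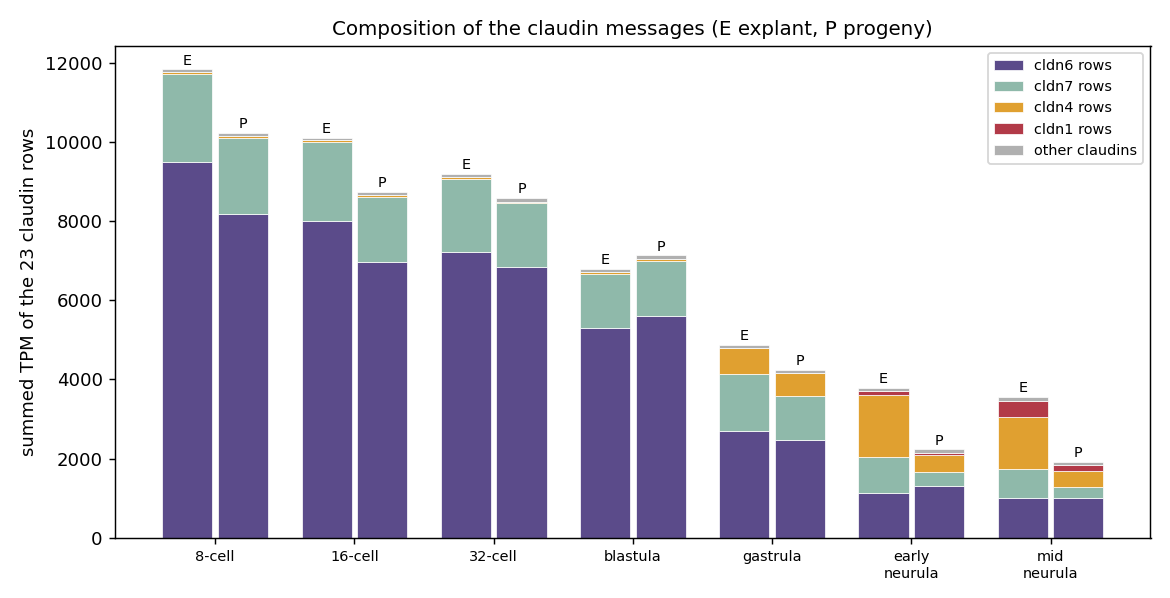
Stacked bars of summed TPM (y axis, from 0) of the 23 claudin rows at each stage (x axis), explants (E) left of progeny (P), split into cldn6, cldn7, cldn4, cldn1 and other claudin rows, 1 pooled value per bar and no error bars. The cldn6 part shrinks alike in both tissues, and the cldn4 part reaches 1564 TPM in explants against 442 TPM in progeny at early neurula.

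Homeologs of these genes were not always used in parallel. For cgn the L copy rose and the S copy fell between blastula and gastrula, with log2 changes of 1.44 and -1.61 in explants and 1.35 and -1.88 in progeny. The L share of cgn TPM was 97.4% in explants and 98.3% in progeny at gastrula, against 74.7% in explants and 74.0% in progeny at blastula. For cldn4 the L share was 62.8% in explants and 68.4% in progeny at gastrula, against 99.4% in explants and 99.1% in progeny at blastula. For cldn6.1 it was 25.7% in explants and 29.96% in progeny at mid neurula, against 74.7% in explants and 79.2% in progeny at gastrula. The shifts ran the same way in both tissues. The copies of cldn6.2 stayed more even, with an L share of 60.8% in explants and 52.7% in progeny at mid neurula. Since the sources used here do not say how reads were split between copies, a share can include reads from the other copy.

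**Figure D5:**
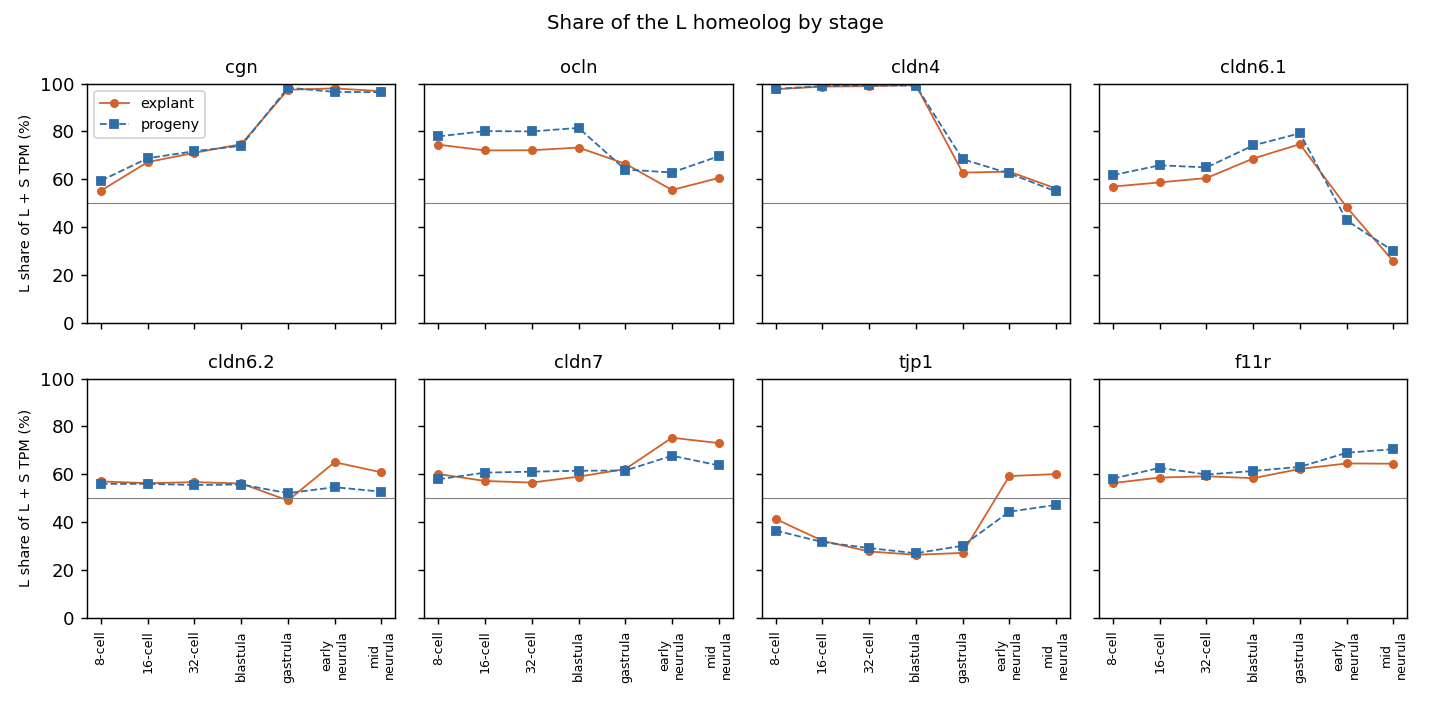
Share of the L homeolog in the summed TPM of both copies, in percent (y axis), for 8 genes at the 7 stages (x axis), with explants as circles on solid lines, progeny as squares on dashed lines, and a grey line at equal use. The curves of the tissues run close together for cgn and cldn4 and lie further apart in places for others, such as tjp1 (59.2% in explants and 44.3% in progeny at early neurula). The cgn share moves to L, and that of cldn4 moves away from L after blastula. For cldn6.1 the L share is larger at gastrula than at 8-cell and then drops. The cldn7 and f11r shares stay between 56.3% and 75.2%.

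Other genes of the junction are given by their own counts, beside 10.9% of all rows higher and 12.9% lower at early neurula, 12.0% and 13.6% at mid neurula, and 2.20% and 3.42% at gastrula. Of 20 rows of further tight junction membrane proteins 2 were higher and 4 lower in explants at early neurula, and 4 and 6 at mid neurula, with 0 and 0 at gastrula. The adhesion molecule jam3 was lower in explants, with jam3.S at 3.07 TPM in explants and 27.4 TPM in progeny at early neurula, and jam3.L at 1.36 TPM in explants and 20.5 TPM in progeny at mid neurula. Row marveld3.L, a relative of occludin, was higher, at 28.0 TPM in explants and 10.6 TPM in progeny at early neurula. Row ildr1.L, which marks tricellular contacts, was at 15.2 TPM in explants and 5.86 TPM in progeny at that stage. Row jam2.L was lower, at 0.794 TPM in explants and 5.23 TPM in progeny at mid neurula.

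Of 23 rows of further plaque and associated proteins 1 was higher and 8 lower at early neurula, 1 and 5 at mid neurula, and 0 and 2 at gastrula. Those with the widest differences were pmp22, arhgef2.L and mpdz.L. Row pmp22.S, a membrane protein that is also a component of myelin, was at 13.4 TPM in explants and 73.3 TPM in progeny at early neurula. Row arhgef2.L, an exchange factor for RhoA that cingulin binds in mammalian cells, was at 11.4 TPM in explants and 46.8 TPM in progeny at that stage. Its S copy was the 1 higher row of the list, at 60.8 TPM in explants and 29.8 TPM in progeny, so the copies summed to 72.1 TPM in explants and 76.6 TPM in progeny. Row mpdz.L, a scaffold with many PDZ domains, was at 5.85 TPM in explants and 21.5 TPM in progeny.

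Polarity genes were split evenly, with 6 rows higher and 6 lower of 24 at early neurula, 5 and 6 at mid neurula, and 0 and 0 at gastrula. Row crb3.L, the Crumbs protein of epithelia, was at 15.3 TPM in explants and 3.93 TPM in progeny at early neurula, and crb2.L, its relative, at 0.858 TPM in explants and 18.2 TPM in progeny. Of 18 rows of the adherens junction core 3 were higher and 6 lower at early neurula, 3 and 5 at mid neurula, and 0 and 1 at gastrula. Row cdh1.S, E-cadherin, was at 478 TPM in explants and 103 TPM in progeny at early neurula, while its minor copy cdh1.L was at 0.17 TPM in explants and 1.92 TPM in progeny. Row cdh2.L, N-cadherin, was at 4.74 TPM in explants and 75.7 TPM in progeny, and row pvrl3.L at 0.832 TPM in explants and 12.1 TPM in progeny. Row jup.L, plakoglobin, was at 279.6 TPM in explants and 63.5 TPM in progeny at the same stage.

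Transcription factors known from epidermal and other epithelia differed already at gastrula. Of 28 such rows 16 were higher in explants and 0 lower at gastrula, 22 and 1 at early neurula, and 20 and 0 at mid neurula. Row gata2.S was at 165 TPM in explants and 51.7 TPM in progeny at gastrula, and grhl1.S at 58.0 TPM in explants and 24.5 TPM in progeny. The 1 lower row at early neurula was grhl2.L, at 3.39 TPM in explants and 12.3 TPM in progeny. Its S copy went the other way, with grhl2.S at 5.75 TPM in explants and 1.69 TPM in progeny. The list shares 5 of its 16 symbols with the epidermis markers below. Grainyhead-like factors are known in mouse to act on claudin genes. Their part in the members' values was not tested.

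Markers of whole cell types also differed between the tissues, and the lists took different courses from gastrula to mid neurula. Epidermis markers were higher in explants in 13 of 19 rows at early neurula and lower in 0, and summed over 20 rows to between 1482 and 12401 TPM in explants and between 765 and 3035 TPM in progeny from gastrula to mid neurula. Markers of ciliated cells were higher in 14 of 15 rows and those of ionocytes in 15 of 18, with sums of 385 to 1383 TPM in explants against 182 to 194 TPM in progeny for the first list, and 934 to 1561 TPM in explants against 98.2 to 323 TPM in progeny for the second. Muscle and somite markers were lower in explants in 23 of 23 rows, with sums of 15.7 to 371 TPM in explants and 395 to 12474 TPM in progeny, and msgn1.S, tnnc2.S and mylpf.S were at 0 in an explant column. All 20 neural plate rows and all 16 neural crest rows were lower in explants at early neurula, with sums of 411 to 1825 TPM in explants and 1382 to 2834 TPM in progeny for neural plate, and 37.0 to 55.2 TPM in explants and 94.0 to 692 TPM in progeny for neural crest. Of 15 notochord rows 13 were lower and 2 higher in explants at early neurula, with sums of 239 to 598 TPM in explants and 808 to 1895 TPM in progeny. Of 16 endoderm rows 13 were lower and 1 higher, with sums of 129 to 297 TPM in explants and 506 to 1365 TPM in progeny. Of 13 cement gland rows 6 were lower and 0 higher at early neurula, with sums of 739.8 to 5848 TPM in explants and 586 to 5559 TPM in progeny. At mid neurula 13 epidermis, 15 ciliated cell and 16 ionocyte rows were higher in explants, and 18 neural plate, 16 neural crest, 23 muscle, 5 notochord and 5 endoderm rows were lower. In the other direction 1 epidermis row was lower and 2 notochord, 1 endoderm and 1 cement gland rows were higher at that stage. Single markers at 0 in a late column were xepsin.S, tekt2.L, nrp1.L and a2m.L in explants, sox10.L and darmin.S in progeny, and muc2.L and muc2.S in both. The part of these cell types in the members' values was not tested.

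At gastrula the same lists already differed in part. Of 19 epidermis rows 8 were higher in explants and 2 lower, and 7 of 15 ciliated cell rows, 4 of 18 ionocyte rows and 2 of 13 cement gland rows were higher with 0 lower. In explants 14 of 16 endoderm rows, 10 of 23 muscle rows and 6 of 20 neural plate rows were lower with 0 higher, and 7 of 15 notochord and 4 of 16 neural crest rows were lower with 1 higher in each.

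Rows whose pattern over the 14 columns was most like that of 4 leading members were found among 14531 rows with a symbol and at least 10 TPM in a column. Likeness was Pearson's r of log2(TPM + 1) over the 14 columns, which share 2 tables and 7 stages, and is a description. Nearest to cldn4.L were rbm47.S (r = 0.996), pvrl1-like.2.L, aldh1l1.L, rbm47.L and gata2.L (0.991). Nearest to cldn6.1.L were hist1h2aa.L (0.999), nasp.S, slc5a9.L, gng10.L and impa2.L (0.997). Nearest to cldn7.L were eif1.S (0.992), tmbim4.L, acp2.S, b9d1.L and tmod3.S (0.973). Nearest to cldn6.2.S were kiaa1143.S (0.995), ctu2.L, cdc6.L, cpsf4.S and polr2i.S (0.993). As an example, rbm47.S was at 79.6 TPM in explants and 13.3 TPM in progeny at early neurula, beside 989 TPM in explants and 276 TPM in progeny for cldn4.L.

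The remaining members were small. The 8 rows that stayed under 10 TPM are cldn3.S, cldn5.S, cldn8.1.L, cldn15.1.L, cldn15.2.L, cldn34.L, cldn34.S and cgn.S. Closest above the 1 TPM limit were cldn15.2.L, with a highest value of 1.04 TPM, cldn15.1.L with 1.08 TPM and cldn8.1.L with 2.47 TPM. Closest under it were cldn5.L with 0.737 TPM, cldn18.L with 0.717 TPM and cldn2.L with 0.562 TPM. Both cldn15 rows, named after a claudin that forms cation pores in the mouse gut, had their highest values in progeny before gastrula. Neither reached 1 TPM in an explant column, so both are members through progeny alone. Among the matching rows left out, cldn8.1.S, cldn22.S and cldn14.L were listed at 0 in all 14 columns.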

How the data were processed

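RNA of explants and progeny was read on a NextSeq sequencer, per the labels. The authors deposited 2 tables of TPM values, 1 per tissue, with 7 columns each, and per the file headers each column is a stage. The sources used here do not say how 3 samples became 1 column. Per the submitters' processing notes, TopHat, Bowtie2, Cufflinks and Cuffdiff were used. Versions, build and annotation were not given in the sources used here. Column totals lie between 995987 and 999092, so depth is unknown and no counting interval can be given. The last stage is called mid neurula after the sample titles, although the descriptions abbreviate it as LN.

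From these values log2(TPM + 1) differences were computed over all 26351 rows that reach 1 TPM in at least 1 column, with python 3.11.15, pandas 2.3.3 and numpy 2.4.6, for 15 comparisons (explant against progeny at 7 stages, and 4 intervals within each tissue), with a 2-fold rule in place of a test. The 2-fold rule was run on made data without noise, which checks the code and not the error rate on real values. The planned printing of sequences was not run. Some members enter the counts and sums but are not reported here one by one.

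Members that reach 10 TPM have their value given in every column where they are described, and other members are given by counts and ranges. For the 4 members with the highest gastrula or neurula TPM (1 row per symbol) the 5 most similar rows are named. Per pathway list up to 4 rows of at least 5 TPM with the widest mean late difference are named. Rows ildr1.L, arhgef2.S, cdh1.L, grhl2.L and grhl2.S were added after their values were seen. There were 5 pathway lists and 9 cell type lists. The members, lists and cut-offs were chosen with earlier results of these data known. Alternatives were a pseudocount of 0.1, no filter, a 5 TPM filter, median-of-ratios scaling, summed homeologs and the 8-cell column as start. Of the 39 members 32 have the same symbol in the RefSeq table of Xenopus_laevis_v10.1, which was used for neighbouring genes alone.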

Additional observations from a re-analysis of the deposited data

Results flagged for a closer look

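Between gastrula and early neurula 8 members moved one way in explants and the other way in progeny, with changes at least 1 apart on the log2 scale. With 1 pooled value per tissue and stage the difference was not tested. Among all 17395 rows that reach 10 TPM, 11.3% did the same, against 8 of 31 members that reach it. In the other 3 intervals 0 members did so, against 0.552%, 1.26% and 3.48% of these rows in order of stage. Among the 8, row tjp3.L changed by 0.84 in explants and -0.98 in progeny, a gap of 1.82. Its S copy tjp3.S had a gap of 1.14, with 11.3 TPM in explants and 4.94 TPM in progeny at early neurula. Row cldn4.L had a gap of 1.75 and cldn4.S one of 1.34, with changes for cldn4.S of 1.19 in explants and -0.15 in progeny. For cldn23.L the gap was 1.68, and for cgn.L it was 1.097. The ZO-1 row tjp1.S went the other way, with a change of -0.61 in explants and 0.49 in progeny, a gap of -1.10. Before 1 TPM is added, median-of-ratios scaling moves changes over this interval by 0.30 in explants and 0.07 in progeny. With it the gap of tjp1.S is under 1 in size.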

How the results depend on the processing

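No paired analysis was possible because each column is 1 pooled value that carries no replicate number, and leaving out replicates could not be done for the same reason. Counts are of 39 members (explant against progeny unless an interval is named). With a pseudocount of 0.1 they were 2 higher and 2 lower at 8-cell, 2 lower at 16-cell, 2 higher and 3 lower at 32-cell, 1 higher and 3 lower at blastula, 2 higher and 1 lower at gastrula, 5 lower at early neurula, 5 risen and 2 fallen in explants from 16-cell to blastula, and 8 risen in progeny from early to mid neurula. Of all rows 4.22% were then higher and 10.8% lower at 8-cell, and 4.79% lower at 16-cell. Shares higher and lower were 4.30% and 4.73% at 32-cell, 4.24% and 4.06% at blastula, and 5.68% and 7.14% at gastrula. At early neurula 19.8% were lower. From 16-cell to blastula 21.3% rose and 2.21% fell in explants, and 15.2% rose in progeny from early to mid neurula. With the 5 TPM filter, which leaves 36 members, 0 were lower at blastula. With median-of-ratios scaling 0 were lower at blastula. In explants it gave 1 risen and 5 fallen from 16-cell to blastula, 6 fallen from blastula to gastrula and 1 fallen from early to mid neurula. In progeny it gave 1 risen and 1 fallen, 8 fallen and 3 fallen for the same intervals. Of all rows 2.21% in explants and 2.60% in progeny then fell from early to mid neurula. With homeologs summed to 23 genes, which lowers counts by construction, 0 were lower at 16-cell, 7 higher at early neurula and 9 higher at mid neurula. In explants that gave 1 risen and 0 fallen from 16-cell to blastula, 6 fallen to gastrula, 4 risen and 2 fallen to early neurula, and 3 risen to mid neurula. In progeny it gave 2 risen from 16-cell to blastula, 3 risen and 6 fallen to early neurula, and 3 risen to mid neurula. Of all symbols summed alike 1.61% were lower at 16-cell, 11.6% higher at early neurula and 12.8% higher at mid neurula. For the explant counts, in order, their shares were 12.1%, 0.975%, 26.9%, 16.2%, 20.4% and 7.75%. For the progeny counts they were 8.30%, 16.6%, 15.9% and 8.04%. With the 8-cell column as the start of the first interval explants had 5 risen and 2 fallen and progeny 1 fallen. Of all 26351 rows 6490 then rose and 522 fell in explants, and 403 fell in progeny. Without the filter all 30 counts stayed within 1.5 times. Apart from the summed homeologs, the cause of these shifts was not tested. Low rows such as cldn15.1.L and cldn34.L make up part of the pseudocount shifts, and unknown depth limits every value near 1 TPM.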
